A study of Mus musculus with 8 samples.

Results

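The genes described here are 9 members of the insulin-like growth factor (IGF) system: the ligands Igf1 and Igf2, the IGF2 receptor Igf2r, and the binding proteins Igfbp2, Igfbp3, Igfbp4, Igfbp5, Igfbp6 and Igfbp7. They were chosen by symbol, and all 9 were found among the 23337 genes of the deposited values. RNA was sequenced from murine oviductal epithelial (MOE) cells, a line of FVB strain whose organ of origin is the mouse counterpart of the fallopian tube. Confluent cells were collected with trypsin, plated on 3D collagen gels (4 libraries) or on 2D collagen (4 libraries) and kept for 6 h in MOE medium without EGF, which all 8 libraries share. The comparison made is that of 3D with 2D collagen. All libraries come from 1 cell line, and the labels do not state that replicates were separate cultures, so the p-values reflect library-to-library spread that may be technical.

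IGF1 and IGF2 are secreted peptides that signal through the receptor encoded by Igf1r and, in part, through the insulin receptor. The product of Igf2r, which is also the cation-independent mannose 6-phosphate receptor, takes up IGF2 for breakdown in lysosomes and carries lysosomal enzymes. The binding proteins are secreted, hold IGFs outside the cell and can withhold them from or deliver them to the receptor. IGFBP7 differs from the rest of the family in its low affinity for IGFs, and it is found in extracellular matrix and around blood vessels. Igf2 is expressed from the paternal and Igf2r, in most mouse tissues, from the maternal chromosome.

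Depth ranged from 15692699 to 25862036 reads per library. The libraries differed in how far they stood from the other 3 of their group. By the median absolute difference in log2 values over tested genes, the distances ran from 0.15 (3D replicate 3) to 0.36 (3D replicate 4) on 3D collagen and from 0.26 (2D replicate 3) to 0.47 (2D replicate 2) on 2D collagen. Among the epithelial markers, Pax8, Krt7, Krt8, Krt18 and Krt19 were abundant, while Epcam and the oviductal glycoprotein gene Ovgp1 were at or below 29.9 normalized counts in every library. Cdh1 ran from 17.4 to 104. Of the 9 tested epithelial markers limma called Krt8 alone, at −0.76 on the log2 scale (adjusted p = 0.0397 by limma), against 5.72% of all tested genes. The count tests edgeR and DESeq2 called 1 and 3 of the 9, against 5.73% and 13.4%. By limma 4 had an unadjusted p under 0.05, against 24.2%. Foxj1, named after its values were seen, averaged 499 on 3D collagen and 1353 on 2D collagen (log2 fold change −1.70, limma adjusted p = 0.0706). Summed smooth muscle markers ranged from 242 to 890 RPM (reads scaled to library size) on 3D collagen and from 433 to 2154 on 2D collagen, most of it Acta2. A normalized count is a read count divided by 1 size factor per library, so that it can be compared between libraries.

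The family was dominated by 1 transcript. Igfbp7 (ENSMUSG00000036256, chromosome 5, 77349240 to 77408041, minus strand, mm10) gave 98.8% ± 0.771 of the reads of the 6 binding proteins on 3D collagen and 98.2% ± 1.05 on 2D collagen (SD, n = 4 each). Per kilobase of exon it averaged 14492 ± 5377 normalized counts on 3D collagen, where 35 of 22814 genes with a known exonic length were higher, and 7703 ± 3578 on 2D collagen, where 99 were higher. Next in the family were Igfbp6, with 52.0 ± 16.6 per kilobase on 3D collagen and 65.0 ± 32.4 on 2D collagen, and Igfbp5, with 18.8 ± 9.54 and 8.63 ± 1.81 (SD, n = 4 each). Igf2r (4.72 ± 1.13 per kilobase on 3D collagen and 2.84 ± 1.07 on 2D collagen), Igfbp4 (2.59 ± 1.66 and 3.85 ± 3.54) and Igfbp2 (1.79 ± 1.84 and 2.03 ± 1.52) followed. Igf2r stood above Igfbp4 on 3D collagen and below it on 2D collagen. Their ranges per kilobase overlapped in both groups, so that Igf2r, Igfbp4 and Igfbp2 were not separated beyond their spread. The mean levels of Igf2, Igfbp3 and Igf1 were the lowest, at 0.258, 0.0905 and 0.0757 per kilobase on 3D collagen and 0.242, 0.459 and 0.0399 on 2D collagen, with overlapping ranges. Igfbp7, Igfbp6 and Igfbp5 were separated from one another without overlap within each group. The lowest Igfbp6 value per kilobase was 37.7 on 3D collagen and 41.2 on 2D collagen, and the highest Igfbp5 values were 32.1 and 11.3. On 2D collagen Igfbp5 was not separated from Igfbp4, since the lowest Igfbp5 value was 7.55 and the highest Igfbp4 value was 8.93.

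**Figure D1:**
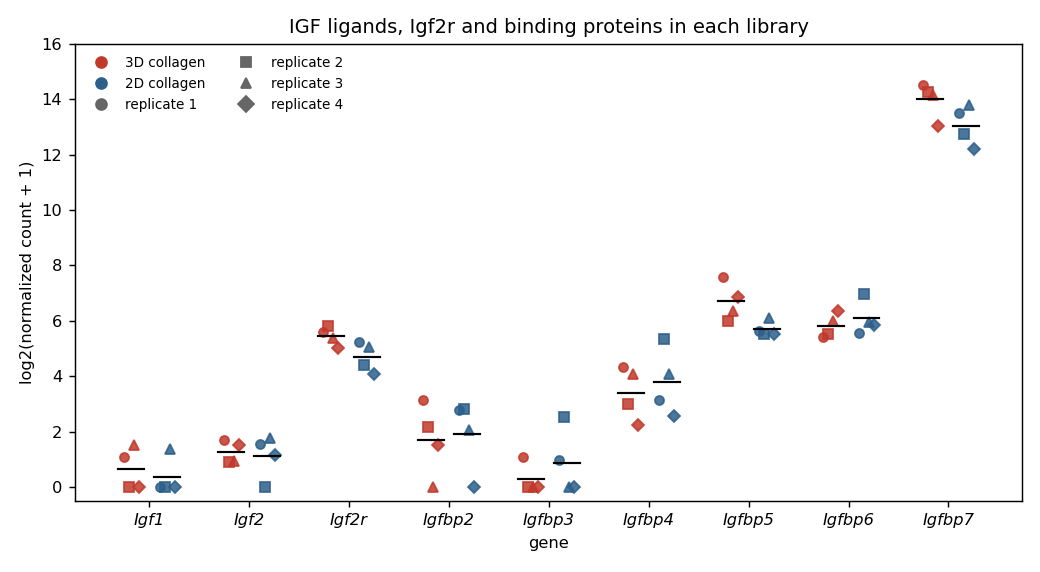
Values of the 9 members in every library, as log2(normalized count + 1), with 3D collagen in red left of 2D collagen in blue, 1 symbol per replicate number and a black line at the mean of 4 libraries. Igfbp7 lies far above all other members in every library, and Igf1, Igf2, Igfbp2 and Igfbp3 are at or below 7.93 normalized counts in every library.

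The sequences upstream of the annotated starts are printed for the member with the highest level (Igfbp7), the next one (Igfbp6) and one that was hardly read (Igfbp3). Each is the 250 bases before the RefSeq start on GRCm38.p6, 5′ to 3′ on the gene's strand, with CG dinucleotides in capitals.
Igfbp7, chr5:77408046-77408295, minus strand: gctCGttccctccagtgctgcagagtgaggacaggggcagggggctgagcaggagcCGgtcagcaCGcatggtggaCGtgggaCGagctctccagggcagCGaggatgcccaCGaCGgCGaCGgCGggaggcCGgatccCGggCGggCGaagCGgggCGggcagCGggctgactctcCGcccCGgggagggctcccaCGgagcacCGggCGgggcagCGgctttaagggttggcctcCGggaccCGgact
Igfbp6, chr15:102143936-102144185, plus strand: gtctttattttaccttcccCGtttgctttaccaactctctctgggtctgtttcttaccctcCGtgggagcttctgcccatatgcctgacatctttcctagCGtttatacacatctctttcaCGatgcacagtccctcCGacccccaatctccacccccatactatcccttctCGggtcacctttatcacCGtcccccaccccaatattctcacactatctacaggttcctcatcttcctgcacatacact
Igfbp3, chr11:7213924-7214173, minus strand: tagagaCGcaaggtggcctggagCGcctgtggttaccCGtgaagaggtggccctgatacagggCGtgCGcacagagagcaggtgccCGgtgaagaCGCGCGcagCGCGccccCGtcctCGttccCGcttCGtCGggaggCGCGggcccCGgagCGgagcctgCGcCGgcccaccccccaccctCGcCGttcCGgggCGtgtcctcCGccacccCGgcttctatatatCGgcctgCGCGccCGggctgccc

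The Igfbp7 window held 26 CG dinucleotides and that of Igfbp3 held 32, more than 90.8% and 95.6% of the 27025 genes with such a window. The Igfbp6 window held 7, close to the median of 6 over all genes. Igf2r, at a few normalized counts per kilobase, had 27 in its window, and Igfbp5 and Igf1 had 10 and 5. The hexamer GGGCGG (a GC box, searched on both strands) was found 4 times upstream of Igfbp7, 3 times each upstream of Igf2r and of the first of 2 starts of Igfbp2, and at 2 of 4 starts of Igf2, and it occurs in 32.9% of all windows. The letters TATAAA were found upstream of Igfbp6 and Igfbp4, once each, against 12.97% of all windows, and CCAAT was found 2 times upstream of Igfbp6 and once upstream of Igf1 and of 1 start of Igf2, against 34.5%. Both strands were searched for each motif. These matches are descriptions of letters and were not tested for binding.

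The ligands were close to the detection limit. Igf1 (chromosome 10, 87858265 to 87937042) gave 1, 0, 2 and 0 reads in 3D replicates 1 to 4 and 0, 0, 2 and 0 reads in 2D replicates 1 to 4. Igf2 (chromosome 7, 142650766 to 142666816) gave 2, 1, 1 and 2 reads on 3D collagen and 2, 0, 3 and 1 on 2D collagen. That is 12 reads for Igf2 and 5 for Igf1 in all 8 libraries together, and a count of 0 allows up to 3 reads, or from 0.116 to 0.191 RPM depending on the library (counting error only). No difference between the substrates was detectable for either ligand at this depth. A same-strand gene model, Gm49394, overlaps 62.8% of the exonic bases of Igf2. Whether the submitters' annotation held this model, and how reads on both were counted, is not given in the sources used here. The neighbouring imprinted RNA H19, named after its values were seen, was present at 89.5, 69.0, 42.0 and 10.1 normalized counts on 3D collagen and at 25.3, 125, 63.3 and 7.35 on 2D collagen, so its libraries overlapped widely.

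Igfbp2 and Igfbp3 were likewise too low to test. Igfbp2, which carries an integrin-binding motif in its protein and lies tail to tail with Igfbp5 on chromosome 1 with 5457 bases between them, gave 7, 4, 0 and 2 reads on 3D collagen and 6, 5, 4 and 0 on 2D collagen. Igfbp5, its neighbour, gave 454 reads on 3D collagen and 211 on 2D collagen over the 4 libraries of each. Igfbp3, which encodes the main carrier of IGFs in blood, gave 1 read on 3D collagen, in replicate 1, and 5 on 2D collagen, of which 4 were in replicate 2. Its neighbour Igfbp1, 3539 bases away on chromosome 11, had no read in any library, which allows up to 0.0191 RPM over all 8 libraries (3 reads of the total). The 4 members Igf1, Igf2, Igfbp2 and Igfbp3 were under the filter of 10 normalized counts in at least 4 libraries, and 5 members were tested.

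None of the 5 tested members passed limma's test at an adjusted p under 0.05, in a comparison in which 5.72% of all 11820 tested genes did (2.33% were higher on 3D collagen and 3.39% lower). At an unadjusted p under 0.05 there were 2, Igfbp5 and Igfbp7, against 24.2% of all tested genes. On recovered reads edgeR called 0 of the 5, where it called 5.73% of all genes (2.61% higher), and DESeq2 called Igfbp5 alone, where it called 13.4% (5.99% higher). The groups overlapped for all 5, while they did not overlap for 18.4% of all tested genes. The median log2 fold change of the 5 was 0.76, against 0.017 over all tested genes, with 3 above 0 and 2 below. In these bulk libraries fewer cells with a transcript and less of it per cell cannot be told apart.

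Igfbp7 had 23721, 19611, 18356 and 8394 normalized counts in 3D replicates 1 to 4, against 11679, 6822, 14082 and 4668 in 2D replicates 1 to 4. The 3D libraries except replicate 4 lay above every 2D library, and the libraries numbered 4 were the lowest of both groups. The means were 17520.4 ± 6501 on 3D collagen and 9313 ± 4325 on 2D collagen (SD, n = 4 each), a log2 fold change of 0.94 with a 95% interval from 0.013 to 1.87 (limma adjusted p = 0.201). Scaled by library size alone, Igfbp7 took 945 ± 306 RPM on 3D collagen and 457 ± 224 RPM on 2D collagen (SD, n = 4 each). Without both libraries numbered 4 the log2 fold change was 0.98 (SE 0.28, limma adjusted p = 0.101). Leaving out single libraries gave limma adjusted p from 0.0926 (without 3D replicate 4) to 0.380. An antisense gene, Polr2b, overlaps 7.03% of the exonic bases of Igfbp7. Polr2b itself ran from 982 to 2234 normalized counts on 3D collagen and from 592 to 1316 on 2D collagen, and it was highest in 3D replicate 4, where Igfbp7 was lowest among the 3D libraries.

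IGFBP7 is known from endothelial cells and fibroblasts, so their markers were set beside it. Of 4 endothelial markers, Pecam1, Cdh5 and Tek were at or below 17.9 normalized counts in every library, while Kdr averaged 449 on 3D collagen and 421 on 2D collagen. The summed endothelial list ranged from 17.2 to 38.9 RPM on 3D collagen and from 14.2 to 29.3 on 2D collagen. The summed list of 8 fibroblast markers ranged from 4.24 to 17.4 RPM on 3D collagen and from 3.44 to 19.5 on 2D collagen. Lum was at or below 1.13 normalized counts, while Dcn ran from 3.68 to 299 and Col1a1 from 34.8 to 96.8 over all libraries. Of the 3 tested genes of that list limma called Pdgfra alone, where it called 5.72% of all tested genes. Pdgfra was at 14.9 to 19.3 normalized counts on 3D collagen and 2.37 to 7.35 on 2D collagen (limma adjusted p = 0.0340). The fibroblast sum was lowest in the libraries numbered 4 of both groups, but its genes did not move together. Dcn was lowest there, while Col3a1 and Pdgfra were higher in 2D replicate 4 than in the other 2D libraries. The endothelial, leukocyte and smooth muscle sums were also lowest in the libraries numbered 4, with smooth muscle at 242 RPM on 3D collagen and 433 on 2D collagen. The part of such cells in the Igfbp7 values was not tested.

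Igfbp5 (chromosome 1, 72857932 to 72874884) encodes a binding protein that attaches to extracellular matrix. It had 193, 62.9, 81.2 and 114 normalized counts in 3D replicates 1 to 4, against 48.7, 45.4, 68.0 and 45.3 in 2D replicates 1 to 4. The groups overlapped only through 3D replicate 2, which lay under 2D replicate 3, and 3D replicate 1 was the highest library. The means were 113 ± 57.3 on 3D collagen and 51.9 ± 10.9 on 2D collagen (SD, n = 4 each), a log2 fold change of 1.00 with a 95% interval from 0.18 to 1.82 (limma adjusted p = 0.137). DESeq2 gave 1.11 (DESeq2 adjusted p = 0.0453), and without 3D replicate 1 limma gave 0.70 (limma adjusted p = 0.271).

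The 3 genes outside the family whose pattern over the 8 libraries was most like that of Igfbp5, the tested member with the smallest adjusted p, were Zfp706, Cript and Eaf2. Their mean absolute differences from Igfbp5, in standard deviations of the log2 values over the 8 libraries, were 0.264, 0.308 and 0.319. Zfp706 had 3754, 3243, 3314 and 3373 normalized counts on 3D collagen and 2993, 3051, 3223 and 2818 on 2D collagen. Its log2 fold change was 0.18, against 1.00 for Igfbp5. Those of Cript and Eaf2 were 0.23 (limma adjusted p = 0.401) and 1.16 (limma adjusted p = 0.0665).

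Igf2r (chromosome 17, 12682406 to 12769664) had 47.6, 55.9, 41.0 and 31.1 normalized counts in 3D replicates 1 to 4, against 37.0, 20.3, 32.4 and 15.9 in 2D replicates 1 to 4. The 3D libraries other than replicate 4 were above all 2D libraries. The means were 43.9 ± 10.5 on 3D collagen and 26.4 ± 9.92 on 2D collagen (SD, n = 4 each), a log2 fold change of 0.76 with a 95% interval from −0.033 to 1.54 (limma adjusted p = 0.223). These values rest on 34 to 64 reads per 3D library and 13 to 41 per 2D library. The other mannose 6-phosphate receptor gene, M6pr, named after its values were seen, was far more abundant per kilobase, at 696 ± 125 normalized counts on 3D collagen and 788 ± 106 on 2D collagen (SD, n = 4 each). The imprinted antisense RNA Airn, which starts inside Igf2r, gave at most 6 reads in a library.

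Igfbp6 and Igfbp4 had fold changes near 0 with wide intervals. Igfbp6 (chromosome 15, 102144362 to 102149511), whose protein prefers IGF2 over IGF1, had 41.9, 44.5, 63.4 and 81.4 normalized counts in 3D replicates 1 to 4, against 45.8, 125, 61.7 and 56.4 in 2D replicates 1 to 4. Its log2 fold change was −0.26 with a 95% interval from −1.10 to 0.58 (limma adjusted p = 0.719), and without 2D replicate 2, the highest library, it was 0.040. Igfbp4 (chromosome 11, 99041244 to 99054392), which encodes an inhibitory binding protein, had 19.3, 6.98, 15.9 and 3.66 normalized counts on 3D collagen, against 7.79, 39.4, 15.8 and 4.90 on 2D collagen. Its log2 fold change was −0.37 with a 95% interval from −1.90 to 1.17 (limma adjusted p = 0.787), and without 3D replicate 4 it was 0.028.

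The highest Igfbp4 value of each group stood in the library with the most liver transcripts. The summed list of 7 liver genes, among them albumin (Alb), reached 29.99 RPM in 3D replicate 1 and 26.7 in 2D replicate 2, and it lay between 0.543 and 8.62 in the other libraries. Igfbp4 is itself made in liver, and its 17 reads in 3D replicate 3 came with a liver sum of 1.26 RPM. H19 was also highest in 3D replicate 1 and 2D replicate 2 within its groups. The part of the liver transcripts in these values was not tested.

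**Figure D2:**
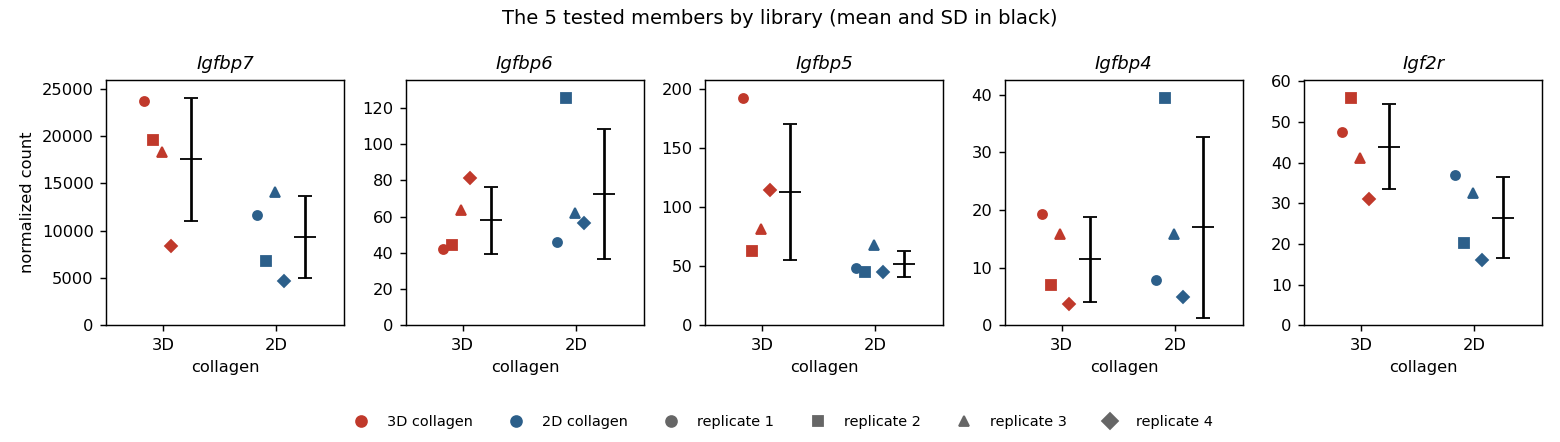
Normalized counts of the 5 tested members in each library, with 3D collagen in red left of 2D collagen in blue, 1 symbol per replicate number and the mean and SD of 4 libraries in black. The groups overlap for each gene, and the libraries numbered 4 are the lowest of both groups for Igfbp7, Igf2r and Igfbp4.

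Around the members, the rest of the IGF system was read in a list of 83 genes, of which 69 were tested. Of these, 2 rose and 4 fell, so 8.70% were called against 5.72% of all genes, and the median log2 fold change was 0.14, against 0.017 over all tested genes. The list was written with earlier results of these data known, so its shares, also those of its groups, are descriptions only. Called genes numbered 0 of 12 receptors and adaptors (6 at an unadjusted p under 0.05, which 24.2% of all tested genes had), 1 of 18 genes of the PI3K and AKT branch (7 unadjusted), 0 of 12 proteases and protease inhibitors that act on binding proteins (2 unadjusted), 3 of 6 genes in the group of Igf2 mRNA binding proteins and imprinted or regulatory neighbours (3 unadjusted), 0 of 6 genes of the growth hormone axis (0 unadjusted), 1 of 13 of the mannose 6-phosphate route (2 unadjusted) and 1 of 2 other binding proteins (1 unadjusted). In the PI3K and AKT branch edgeR called 1 gene and DESeq2 called 5, where they called 5.73% and 13.4% of all tested genes. In the groups without a limma call, edgeR called 0 genes and DESeq2 called 1, the protease gene Plau, which was lower on 3D collagen and was named after its values were seen.

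The receptors for the ligands were present while the ligands were hardly read. Igf1r had 905, 685, 789 and 807 normalized counts on 3D collagen, against 1185, 1044, 1658 and 945 on 2D collagen. Every 3D library lay below every 2D library, and groups did not overlap for 18.4% of all tested genes. The log2 fold change of Igf1r was −0.57 (SE 0.19, limma adjusted p = 0.113). The log2 fold change of Igf1r was −0.64 after GC trends were removed, a setting added after seeing the data (limma adjusted p = 0.0469). That was the only 1 of 21 alternatives that called Igf1r. It stayed uncalled with edgeR (edgeR adjusted p = 0.124), DESeq2 (DESeq2 adjusted p = 0.0537) and library size scaling (limma adjusted p = 0.252). Without single libraries its limma adjusted p ran from 0.0885 to 0.258. The insulin receptor Insr averaged 507 ± 71.9 on 3D collagen and 311 ± 134 on 2D collagen (SD, n = 4 each), which is 0.79 higher on the log2 scale (adjusted p = 0.141 by limma). The adaptors that couple these receptors to PI3K also missed the threshold, with 0.54 on the log2 scale for Irs1 (adjusted p = 0.323 by limma) and −0.76 for Irs2 (adjusted p = 0.172 by limma). Of the exonic bases of Irs1, 30.9% lie under the antisense model Gm9747.

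The Igf2bp genes encode RNA-binding proteins named for the Igf2 transcript, although Igf2 itself was hardly read here. Igf2bp1 fell to 335, 391, 395 and 350 normalized counts in 3D replicates 1 to 4, against 792, 1254, 1026 and 1092 in 2D replicates 1 to 4. Its log2 fold change was −1.48 (SE 0.17; adjusted p = 0.00331 by limma), and it stayed past the threshold without any single library, at limma adjusted p from 0.00517 to 0.0184. Igf2bp2 rose, at 1497 ± 162 on 3D collagen and 1017 ± 76.9 on 2D collagen (SD, n = 4 each), with log2 fold change 0.55 (limma adjusted p = 0.0466). That call was lost without any one of the 8 libraries, at limma adjusted p from 0.0542 to 0.143. Igf2bp3 gave 1 read in all. Hmga2, a chromatin protein known to raise Igf2bp2 transcription in mouse, rose by 1.03 on the log2 scale (SE 0.21; adjusted p = 0.0273 by limma), at 935 ± 197 on 3D collagen and 459 ± 109 on 2D collagen. Its call was lost without any 3D library or without 2D replicate 1 or 3 (0.0552 to 0.0929 as adjusted p by limma).

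Pik3cb, a catalytic subunit of PI3K, fell to 296 ± 27.8 normalized counts on 3D collagen, against 603 ± 79.5 on 2D collagen (SD, n = 4 each), with log2 fold change −1.02 (SE 0.17; adjusted p = 0.0124 by limma), and the call was lost without 3D replicate 3 (limma adjusted p = 0.0546). Crim1, a membrane protein with a motif of the binding proteins, and Gga3, a Golgi adaptor that sorts mannose 6-phosphate receptors, fell by 0.70 (adjusted p = 0.0456 by limma) and 0.73 (adjusted p = 0.0415 by limma) on the log2 scale. The call of Crim1 was lost without any 3D library or without 2D replicate 1, 3 or 4 (0.0566 to 0.144 as adjusted p by limma) and with TMM factors (limma adjusted p = 0.0587), library size (limma adjusted p = 0.132) or edgeR (edgeR adjusted p = 0.0505). That of Gga3 was lost without any 3D library or without 2D replicate 2, 3 or 4 (0.0588 to 0.126 as adjusted p by limma) and with library size (limma adjusted p = 0.0537). Without a filter on low genes the calls of Crim1, Gga3 and Igf2bp2 were lost, at limma adjusted p of 0.0621, 0.0597 and 0.0717.

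Levels of the proteases that act on binding proteins differed widely. Ctsd averaged 69191.5 normalized counts on 3D collagen and 81693.5 on 2D collagen, and Htra1 averaged 171 and 175. Both genes were named after their values were seen. The best known of the proteases that release IGFs gave few reads. Pappa, which cleaves IGFBP4 and IGFBP5 and was named after its values were seen, gave 32 reads on 3D collagen and 10 on 2D collagen over 4 libraries each. Its inhibitor Stc2, also named after its values were seen, was abundant, at 4496 ± 978 normalized counts on 3D collagen and 5849 ± 1883 on 2D collagen (SD, n = 4 each; limma adjusted p = 0.471).

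**Figure D3:**
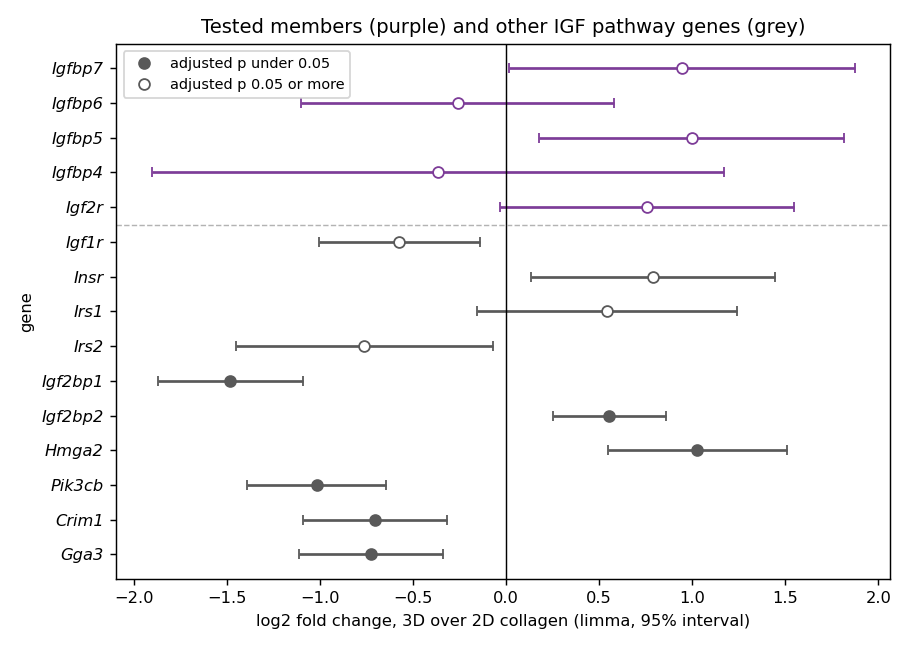
Log2 fold changes, 3D over 2D collagen, with limma's 95% intervals for the 5 tested members (purple, above the dashed line) and 10 other IGF pathway genes (grey). Filled points have an adjusted p under 0.05, which none of the 5 members has and 6 of the other genes have.

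**Figure D4:**
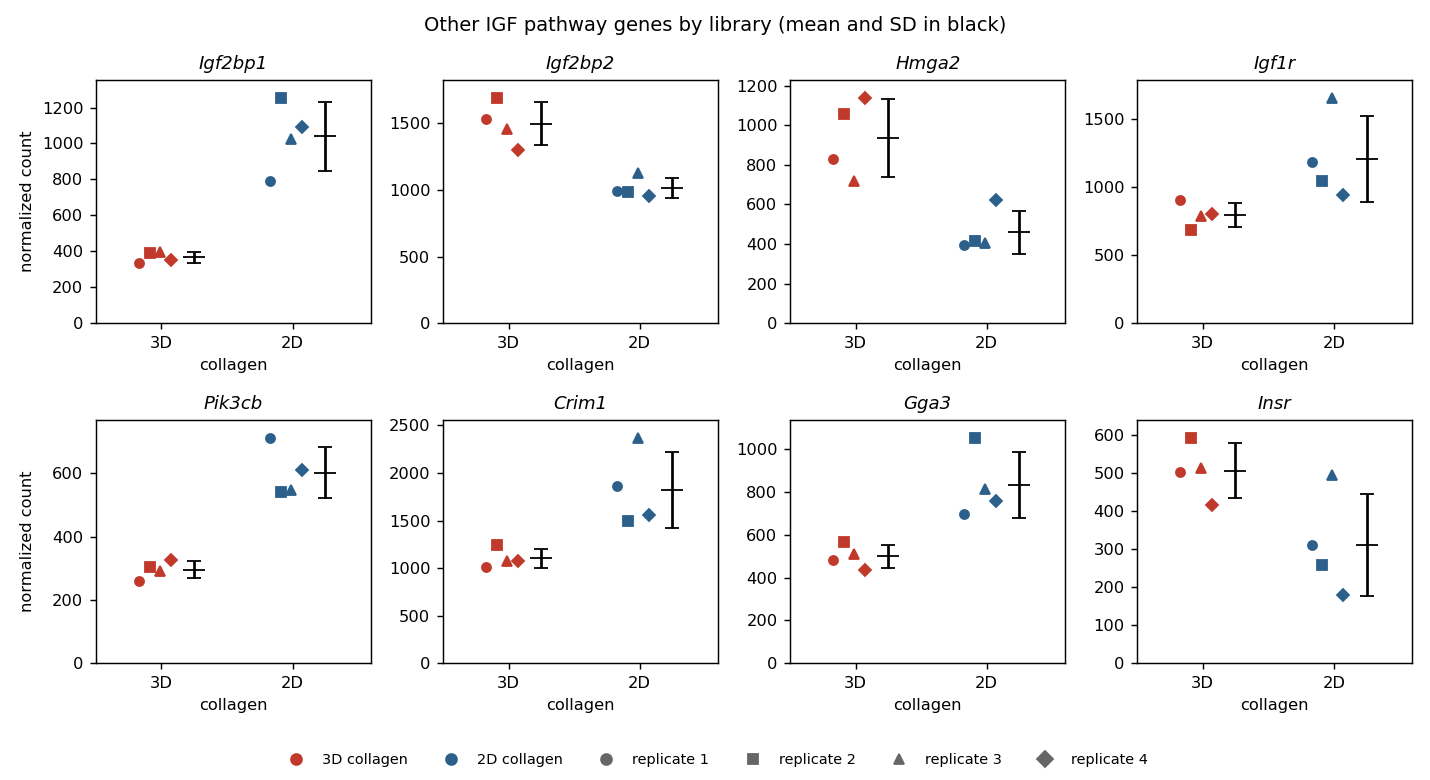
Normalized counts of 8 other IGF pathway genes in each library, with 3D collagen in red left of 2D collagen in blue, 1 symbol per replicate number and the mean and SD of 4 libraries in black. The groups do not overlap except for Insr, where 2D replicate 3 reaches 494. Of the 8 genes, 6 are shown because they passed limma's threshold, so their separation follows in part from that choice. Groups did not overlap for 17 of the 69 tested genes of the list and for 18.4% of all tested genes.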

How the data were processed

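RNA sequencing values of 8 libraries, 4 on 3D and 4 on 2D collagen, were used as deposited. HTSeq 0.6.1p1, DESeq2 and the mm10 build are named in the submitters' processing notes. Which aligner, annotation and strand setting were used is not given in the sources used here. What the authors deposited is a normalized signal for each gene. In every library 100% of these values were within 0.001 reads of a whole number once multiplied by 1 factor, and these factors differed from median-of-ratios size factors by at most 3.4e-09, so whole reads were recovered and used as counts.

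Groups were compared by limma 3.58.1 in R 4.3.3, with trended and robust prior variance, after log2(normalized count + 1), over genes with at least 10 normalized counts in at least 4 libraries, without covariates. Fold changes on this scale understate those of low genes. P-values were adjusted over all 11820 tested genes (Benjamini-Hochberg, threshold 0.05). edgeR (4.0.16) and DESeq2 (1.42.0) were run on recovered reads, and edgeR called 677 genes. Floors of 3 reads cover counting error only. The limma fit, but not edgeR or DESeq2, was also run on simulated counts with 200 altered genes. Positions and exonic lengths came from GENCODE M21 (GRCm38, the mm10 build), where 22814 symbols had 1 match, and upstream sequences from RefSeq GRCm38.p6, where all 9 members matched. Without a stated strand setting, antisense reads cannot be told apart.

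The members, lists and tests were chosen with earlier results of these data known. The named genes were all members, Igf1r, Insr, Irs1, Irs2, Igfbp1, the listed pathway genes past the threshold and 3 genes of like pattern. Intestine, smooth muscle and leukocyte markers were also read (7, 5 and 5 genes), with 0 of them called by limma or edgeR, 1 leukocyte gene by DESeq2 (Csf1r, named after its values were seen) and 1 at limma's unadjusted p under 0.05. Over all tested genes the shares were 5.72% for limma, 5.73% for edgeR, 13.4% for DESeq2 and 24.2% at limma's unadjusted p. Protein sequences were not used here.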

Additional observations from a re-analysis of the deposited data

Results flagged for a closer look

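In 38 groups of 4 libraries over the named genes, 4 had a library that stood far from the other 3 (a gap above Dixon's 95% critical value, which chance exceeds in about 1 in 20 groups). Igfbp5 in 2D replicate 3 was at 68.0 normalized counts, against 45.3 to 48.7 in the other 2D libraries. Hmga2 in 2D replicate 4 was at 623, against 396 to 413 in the other 2D libraries. Igf1 in 2D replicate 3, at 1.58 normalized counts (2 reads), and Igfbp3 in 3D replicate 1, at 1.13 (1 read), stood against 0 in the other libraries of their groups. With the other 3 libraries at 0 any read is flagged, so the rate of 1 in 20 does not apply to Igf1 and Igfbp3.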

How the results depend on the processing

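The count of called members was 0 higher and 0 lower under all alternatives but 3, in which 1 member was higher: Igfbp5 with DESeq2 and Igfbp7 with the replicate number as a block in limma (adjusted p = 0.0236) or in edgeR (adjusted p = 0.0226, added after seeing the data). The numbers were not taken to pair the libraries, since the deviations of same-numbered libraries from their group means correlated at −0.17, 0.37, 0.25 and 0.81 for numbers 1 to 4 (across genes), and not every library correlated best with its own number. Among the 5 tested members and the 10 other pathway genes with fitted fold changes the direction turned only for Igfbp4 without 3D replicate 4 and for Igfbp6 without 2D replicate 2. Without single libraries the log2 fold change of Igfbp4 ran from −0.77 to 0.028 and that of Igfbp6 from −0.44 to 0.040.

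The other IGF pathway genes, 2 higher and 4 lower, gave 2 lower with library size as the scaling, 1 higher and 2 lower without a filter, 9 lower with DESeq2, 8 lower with the replicate block, 0 and 0 against a 1.5-fold change, and 1 higher and 2 lower without both libraries numbered 4 (added after seeing the data). Without single libraries the higher count ran from 0 to 1 and the lower count from 1 to 5. The causes were not tested. All genes higher and lower numbered 275 and 401, against 663 and 742 with the block, 718 and 643 with the block in edgeR, 481 and 604 with GC trends removed, 163 and 265 without both libraries numbered 4, 708 and 871 with DESeq2, 498 and 318 with library size, which moved the median of all genes to 0.19, 9 and 37 against a 1.5-fold change, and from 42 to 267 and from 105 to 360 without single libraries. The GC correction was also added after seeing the data, and it left all 5 members uncalled. Igfbp4 was under the filter in 4 of the fits without 1 library. Reads limit Igf1, Igf2, Igfbp2 and Igfbp3 to a description.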

Other observations

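The growth hormone axis, through which Igf1 is controlled in liver, was read without a called gene. Of its 6 tested genes 0 passed the threshold with limma, edgeR or DESeq2, against 5.72%, 5.73% and 13.4% of all tested genes. An unadjusted p under 0.05 with limma was reached by 0 of the 6, against 24.2%. With 6 genes these counts do not set the axis apart from other genes. Its receptor Ghr had 1592 ± 258 normalized counts on 3D collagen and 2198 ± 1035 on 2D collagen (SD, n = 4 each). Ghr was named after its values were seen.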
